A study of Arabidopsis thaliana with 32 samples.

Results

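The SULTR3 family is the largest branch of the sulfate transporters of Arabidopsis thaliana, and its 5 genes are SULTR3;1 (AT3G51895), SULTR3;2 (AT4G02700), SULTR3;3 (AT1G23090), SULTR3;4 (AT3G15990) and SULTR3;5 (AT5G19600). The members were taken by gene identifier from count tables of 37336 genes, of which 25956 had a count in any library. The study made 32 libraries by 3′RNA-seq, in which each transcript is read from its poly(A) end, with 4 libraries in each of 8 groups of shoots or roots. The genotypes were q-lsu-KO, 1 line described as carrying a deletion in all 4 LSU genes (RESPONSE TO LOW SULFUR, small proteins induced by sulfur deficiency), and the wild type Col-0 (WT), from which q-lsu-KO is derived. All seedlings grew for 10 days on half-strength Hoagland's agar with normal sulfur and were then moved for 5 days to sulfur-deficient medium [dS], in which MgCl2 replaced MgSO4, or to fresh medium with 1 mM sulfate [nS], so that every group was 15 days old. Each RNA came from 10 or more pooled seedlings kept in short days, and nothing states that libraries of a group came from separate plates, so p-values measure the spread between these libraries.

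Sulfate enters the root from the soil, moves in the xylem and phloem to other organs, and is reduced to sulfide inside plastids, where cysteine synthesis begins. Transporters of the SULTR1 and SULTR2 groups move sulfate across the plasma membrane for uptake and long-distance transport, and those of the SULTR4 group release it from the vacuole. Members of SULTR3 have been placed in the chloroplast envelope, where they would supply sulfate for that reduction. The family is not uniform, however, and single members have been tied to sulfate movement in the root vasculature and to the distribution of phosphate.

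The family was scattered over the genome. In TAIR10.1, AT3G51895 (SULTR3;1) lies at chr3:19251287-19255922 on the minus strand, AT4G02700 at chr4:1188983-1193611 on the plus strand, AT1G23090 at chr1:8184925-8189234 on the minus strand, AT3G15990 at chr3:5426987-5430897 on the plus strand and AT5G19600 at chr5:6612815-6617047 on the minus strand. Their RefSeq transcripts have 10 to 13 exons and coding lengths of 1896 to 2112 bases. Coding sequences of the 10 member pairs were 60.5 to 71.0% identical. The longest stretch of identical bases between any pair of their transcripts was 23 bases, against reads of 55 bases, so that a whole read of one member could not match another exactly.

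SULTR3;4 and SULTR3;2 each share their 3′ end with a neighbour on the opposite strand. AT3G15990 overlaps AT3G16000 (MFP1, a thylakoid-associated protein) over 140 bases at chr3:5430758-5430897, within a 3′ UTR of 218 bases. AT4G02700 overlaps AT4G02710 (NET1C) over 96 bases at chr4:1193516-1193611. Whether the counting used strand is not given in the sources used here, and without strand, reads from these stretches cannot be assigned to one gene. MFP1 itself had 158 to 464 counts per library in shoots and 4 to 32 in roots.

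The sequences just upstream of the annotated starts are shown for the 3 members whose shoot and root libraries did not overlap, of which the first was high in shoots and the other two in roots. They are 250 bases of the RefSeq assembly TAIR10.1, read 5′ to 3′ on the strand of the gene, from chr3:19255923-19256172 (minus strand), chr3:5426737-5426986 (plus strand) and chr5:6617048-6617297 (minus strand). Capitals mark matches on either strand to TATAAA, the core of the TATA box, and to ACGTG, the core of the G-box and of abscisic acid response elements.
SULTR3;1: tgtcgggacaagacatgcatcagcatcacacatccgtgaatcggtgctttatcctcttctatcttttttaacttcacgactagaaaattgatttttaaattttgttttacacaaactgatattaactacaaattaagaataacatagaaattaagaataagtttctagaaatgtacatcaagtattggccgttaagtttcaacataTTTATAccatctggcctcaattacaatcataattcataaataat
SULTR3;4: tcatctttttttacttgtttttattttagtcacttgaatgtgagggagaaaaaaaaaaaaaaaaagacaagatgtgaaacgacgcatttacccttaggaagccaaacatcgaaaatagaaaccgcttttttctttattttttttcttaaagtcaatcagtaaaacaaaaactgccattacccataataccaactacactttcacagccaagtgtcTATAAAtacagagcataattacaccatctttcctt
SULTR3;5: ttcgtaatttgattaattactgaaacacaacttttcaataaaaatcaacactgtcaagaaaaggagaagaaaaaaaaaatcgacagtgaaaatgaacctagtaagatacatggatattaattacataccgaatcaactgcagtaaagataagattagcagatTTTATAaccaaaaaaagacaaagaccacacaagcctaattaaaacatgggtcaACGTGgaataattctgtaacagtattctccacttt

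TATAAA, searched as TATAAA or TTTATA, was found in the upstream 250 bases of 5 of 5 members and in 47.3% of 27443 genes' windows of that length. Its match began 44 bases before the start in AT3G51895, 35 bases in AT3G15990, 30 bases in AT4G02700, 88 bases in AT5G19600 and 218 bases in AT1G23090. In AT3G51895 and AT5G19600 the match was TTTATA, so that TATAAA stands on the strand opposite to the gene. ACGTG, searched as ACGTG or CACGT, was found in 1 of 5 members, AT5G19600, at 35 bases before the start, and in 22.9% of all windows. GAGAC, the core of the sulfur-responsive element first described in a root uptake transporter, was searched as GAGAC or GTCTC and was in 0 of 5 members and in 25.8% of all windows. The windows of the 7 other sulfate transporters, SULTR1;1 among them, also held no GAGAC match, so its absence was not particular to SULTR3. The matches found did not overlap one another, and a match or its absence says only which letters stand in the window.

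The libraries held 893225 to 2857129 counts, 1096342 to 2857129 in shoots and 893225 to 2488983 in roots. Of the targeted genes, LSU2 had 2 to 25 counts per q-lsu-KO library and 192 to 1202 per WT library, but the other LSU genes were not lower in q-lsu-KO. Chosen after their values were seen, LSU1, LSU3 and LSU4 had log2 differences of 0.41 to 2.75, 0.32 to 2.28 and 0.26 to 3.13 for q-lsu-KO over WT across the 4 tissue and sulfur conditions. Of the 4 LSU genes, 2 were called higher and 1 lower in shoots under [dS], 3 higher and 1 lower in shoots under [nS], 1 higher and 1 lower in roots under [dS], and 2 higher and 1 lower in roots under [nS] (edgeR). The shares of all genes called in either direction were 4.17%, 4.82%, 0.157% and 0.163% in the same order. Their summed level in shoots was 4287 ± 282 CPM (counts scaled to library size, with TMM factors) in q-lsu-KO [dS] and 2715 ± 257 CPM in WT [dS], and 1633 ± 161 CPM in q-lsu-KO [nS] and 433 ± 131 CPM in WT [nS] (SD, n = 4 each). Which bases are deleted is not given in the sources used here, and a 3′ tag outside them checks nothing, so only LSU2 went with the genotype labels, and q-lsu-KO is used below as a label. The tissue labels were checked with marker genes. The summed level of 5 photosynthesis genes was 55580 to 77018 CPM in shoots and 104 to 392 CPM in roots, and that of 5 root hair and endodermis genes was 0 to 3.38 CPM in shoots and 395 to 1155 CPM in roots. Both genotypes of a tissue and sulfur condition were sequenced in the same pool, whereas tissues and sulfur conditions were in different pools, so that tissue or sulfur and pool cannot be told apart.

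SULTR3 transcripts were sparse, and a test across all genes needs enough counts (edgeR's filter with a minimum count of 10). SULTR3;1 had 727 counts over the 16 shoot libraries and 59 over the 16 root libraries and passed in shoots alone, as did SULTR3;3, with 127 in shoots and 70 in roots. SULTR3;4, with 130 in shoots and 1032 in roots, passed in both tissues, and SULTR3;5, with 52 in shoots and 578 in roots, passed in roots alone. SULTR3;2 had 21 counts in shoots and 22 in roots and passed nowhere, whereas the other 4 genes passed when shoots and roots were fitted together. For the 14 member values at 0, a count of 0 allows up to 3 counts, or 1.501 to 3.48 CPM depending on the library, for counting error only.

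**Figure D1:**
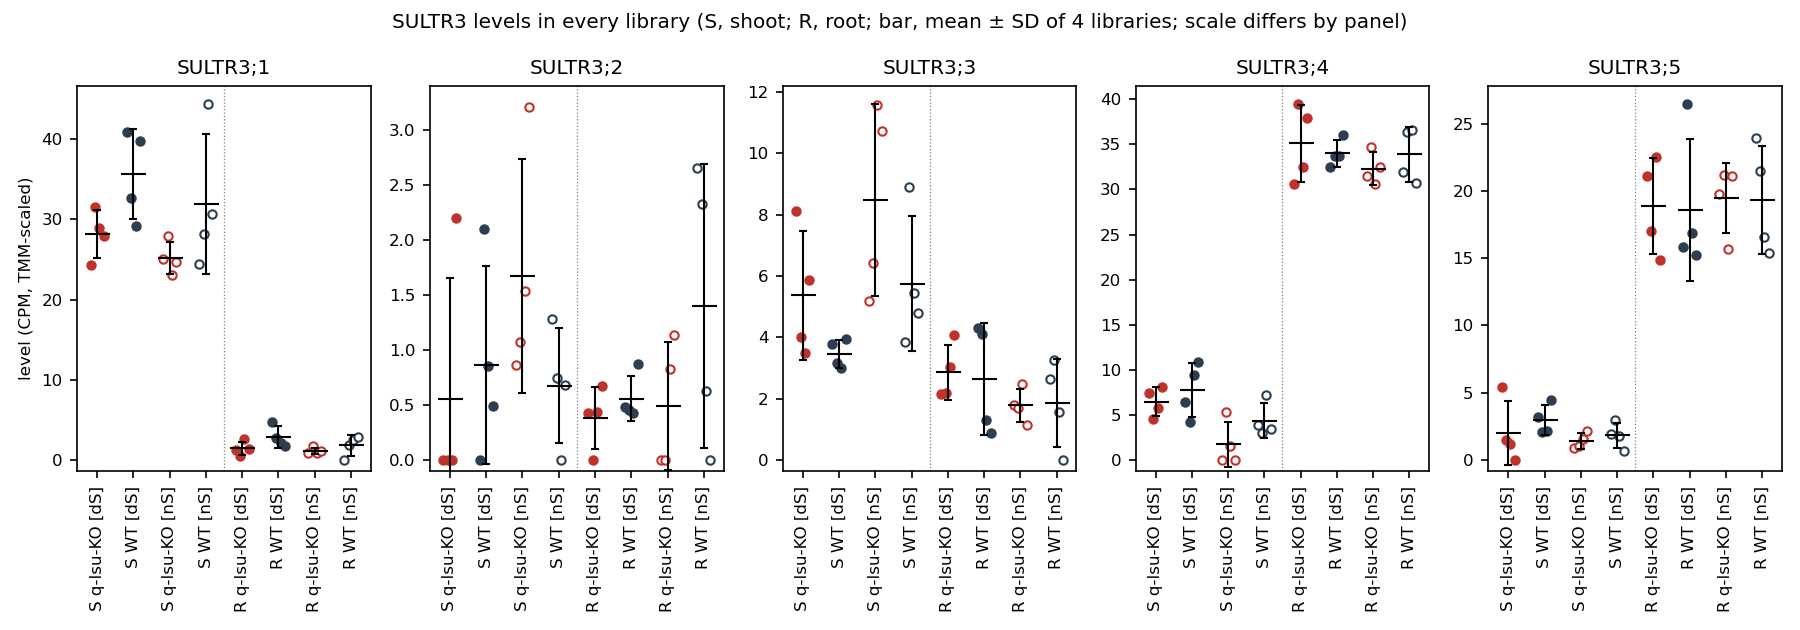
Levels of the 5 SULTR3 genes in every library (y axis, CPM scaled by TMM factors, with its own scale in each panel). Red points are q-lsu-KO and dark points WT, filled for [dS] and open for [nS], with shoots (S) left of roots (R) and black bars for the mean ± SD of 4 libraries. In the first panel shoots lie between 23.1 and 44.4 CPM and roots reach at most 4.79 CPM, and in the fourth panel shoots reach at most 10.8 CPM and roots lie between 30.6 and 39.5 CPM.

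SULTR3;1, described in Arabidopsis as a sulfate transporter of the chloroplast envelope, was a shoot transcript. In shoots it had 24.4, 31.5, 29.0 and 27.9 CPM in q-lsu-KO [dS] libraries and 40.9, 32.7, 29.2 and 39.8 CPM in WT [dS] libraries. Under [nS] it had 25.1, 27.9, 23.1 and 24.7 CPM in q-lsu-KO shoots and 24.4, 28.2, 44.4 and 30.7 CPM in WT shoots. All shoot libraries were therefore above the highest root library, while the 4 shoot groups overlapped one another. In roots it averaged 1.45 ± 0.85 CPM in q-lsu-KO [dS], 2.86 ± 1.35 CPM in WT [dS], 1.14 ± 0.39 CPM in q-lsu-KO [nS] and 1.82 ± 1.29 CPM in WT [nS] (SD, n = 4 each), with 0 to 10 counts per library. By group mean the order was WT [dS], WT [nS], q-lsu-KO [dS] and q-lsu-KO [nS] in shoots, followed by the same order in roots, and the only neighbours in that order that did not overlap were the lowest shoot group and the highest root group.

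SULTR3;4, whose rice counterpart is known for distributing phosphate, was at its highest in roots. It had 30.6, 39.5, 32.5 and 37.9 CPM in q-lsu-KO [dS] roots, against 32.5, 33.7, 33.7 and 36.1 CPM in WT [dS] roots. Under [nS] it had 31.5, 34.7, 30.6 and 32.5 CPM in q-lsu-KO roots and 31.9, 36.3, 36.6 and 30.7 CPM in WT roots. The 16 root libraries thus spanned 30.6 to 39.5 CPM, and neither genotype nor sulfur separated them. In shoots it had 7.45, 4.502, 5.80 and 8.09 CPM in q-lsu-KO [dS] and 6.46, 4.21, 9.45 and 10.8 CPM in WT [dS], whereas under [nS] it had 0, 5.36, 1.54 and 0 CPM in q-lsu-KO and 3.85, 2.97, 7.25 and 3.41 CPM in WT. Every shoot library was below every root library, and both zeros fell in q-lsu-KO [nS] shoots.

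SULTR3;5, described in Arabidopsis as a partner of the transporter SULTR2;1 in root vasculature, was also at its highest in roots. It had 21.1, 17.0, 22.5 and 14.9 CPM in q-lsu-KO [dS] roots and 15.8, 26.4, 16.9 and 15.2 CPM in WT [dS] roots. Under [nS] it had 19.8, 21.2, 15.7 and 21.1 CPM in q-lsu-KO roots and 23.9, 21.4, 16.6 and 15.4 CPM in WT roots. The 4 root means lay between 18.6 and 19.4 CPM and all root groups overlapped. In shoots its 16 libraries had 0 to 9 counts, with group means of 2.02 ± 2.35 CPM in q-lsu-KO [dS], 2.98 ± 1.10 CPM in WT [dS], 1.41 ± 0.57 CPM in q-lsu-KO [nS] and 1.85 ± 0.94 CPM in WT [nS] (SD, n = 4 each).

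SULTR3;3, whose rice counterpart is known for its effect on seed phytate, had its highest mean in shoots of q-lsu-KO under [nS]. It had 8.12, 4.00, 3.48 and 5.88 CPM in q-lsu-KO [dS] shoots and 3.77, 3.16, 3.01 and 3.93 CPM in WT [dS] shoots, with 5.19, 6.44, 11.6 and 10.7 CPM in q-lsu-KO [nS] shoots and 3.85, 8.91, 5.44 and 4.78 CPM in WT [nS] shoots. These groups overlapped, and no library had more than 15 counts. Root means were 2.86 ± 0.90 CPM in q-lsu-KO [dS], 2.64 ± 1.81 CPM in WT [dS], 1.78 ± 0.55 CPM in q-lsu-KO [nS] and 1.87 ± 1.43 CPM in WT [nS] (SD, n = 4 each). SULTR3;2 had 0 to 5 counts in each of the 32 libraries and was at 0 in 9 of them, with group means of 0.39 to 1.67 CPM that all overlapped their neighbours in order.

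Shoots and roots were compared within each genotype and sulfur condition, in 1 model of 32 libraries (edgeR's quasi-likelihood test, Benjamini-Hochberg adjustment over 17918 genes). Calls were made where the fold exceeded 1.5 and the adjusted p was under 0.05. SULTR3;1 was higher in shoots in all 4 groups, by log2 fold changes of 4.16 ± 0.31 in q-lsu-KO [dS], 3.62 ± 0.24 in WT [dS], 4.36 ± 0.40 in q-lsu-KO [nS] and 3.96 ± 0.29 in WT [nS] (SE, n = 4 against 4 each, edgeR adjusted p at most 1.04e-15). The fitted folds ran from 12.3 in WT [dS] to 20.6 in q-lsu-KO [nS]. SULTR3;5 was lower in shoots in all 4 groups, by log2 fold changes of −3.15 ± 0.35, −2.62 ± 0.29, −3.75 ± 0.44 and −3.34 ± 0.37 (SE) in the same order of groups, with edgeR adjusted p of at most 1.43e-11. SULTR3;1 passed the filter in shoots alone and SULTR3;5 in roots alone, in each case the tissue of its higher level. The p-values of both genes here are therefore descriptive only.

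SULTR3;4 was also lower in shoots in all 4 groups, by −2.45 ± 0.23 in q-lsu-KO [dS], −2.11 ± 0.20 in WT [dS], −4.26 ± 0.36 in q-lsu-KO [nS] and −3.01 ± 0.26 in WT [nS] on the log2 scale (SE, edgeR adjusted p at most 5.09e-15). If strand was not used in counting, reads from the 140 bases shared with MFP1 could not be assigned to one gene, and their part in these values was not tested. SULTR3;3 was higher in shoots by 2.26 ± 0.50 in q-lsu-KO [nS] (adjusted p = 6.81e-05) and by 1.504 ± 0.46 in WT [nS] (adjusted p = 0.003), on the log2 scale with SE. This gene passed the filter only through shoot libraries, mostly of [nS], groups in which it was then called. Its p-values here are therefore descriptive only. Under [dS] its difference was 0.95 ± 0.43 in q-lsu-KO, with an adjusted p of 0.046 that exceeded the threshold under 6 other settings, and 0.40 ± 0.43 in WT, which was not called (adjusted p = 0.418).

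The members called were thus 4 of 4 tested in q-lsu-KO [dS], 3 of 4 in WT [dS], 4 of 4 in q-lsu-KO [nS] and 4 of 4 in WT [nS], beside 58.4%, 59.2%, 58.7% and 59.2% of all genes tested in these comparisons. Apart from SULTR3;4, each tested member passed the filter of 1 tissue alone, the one in which its level was higher, so nothing is read from these counts. The median of all genes was −0.10 to −0.05 on the log2 scale with TMM factors and −0.85 to −0.76 when libraries were scaled by their totals alone. Under that scaling SULTR3;3 turned to −0.27 in WT [dS] and was called only in q-lsu-KO [nS], whereas the other 3 kept their directions in all 4 groups. In bulk tissue, fewer cells of a type and less RNA per cell cannot be told apart.

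**Figure D2:**
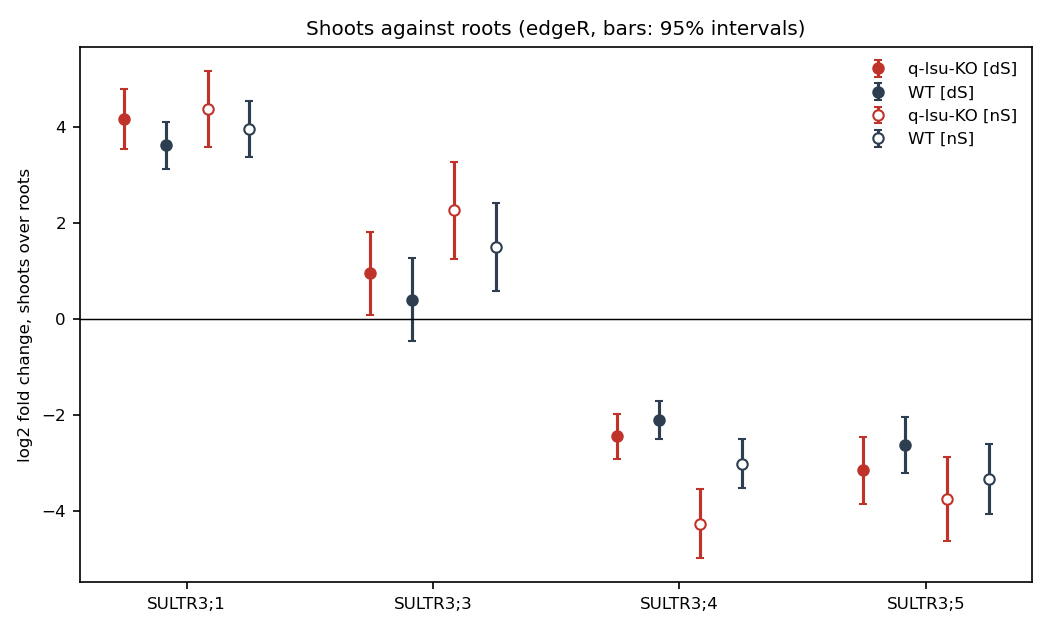
Log2 fold changes of shoots over roots (y axis) for the 4 SULTR3 genes that passed the count filter, with a point for each genotype and sulfur condition and bars for 95% intervals of the edgeR fit. SULTR3;1 sits at 3.62 to 4.36 and SULTR3;5 at −3.75 to −2.62, while the second gene's interval in WT [dS] includes 0.

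Whether the tissue difference itself depended on genotype or sulfur was tested as an interaction. None of 4 members was called for genotype by tissue under [dS] or [nS], beside 1.73% and 1.89% of all genes (edgeR, and 0 and 1 of the 4 at an unadjusted p under 0.05). For sulfur by tissue, 1 of 4 members was called in q-lsu-KO, beside 7.70% of all genes, and 0 of 4 in WT, beside 6.51%, where 1 had an unadjusted p under 0.05. The called gene was AT3G15990, whose [dS] over [nS] change in q-lsu-KO was larger in shoots than in roots by 1.81 ± 0.55 on the log2 scale (SE, edgeR adjusted p = 0.0214), against 0.91 ± 0.37 in WT (adjusted p = 0.13). The call in q-lsu-KO was lost without any one of 5 shoot libraries, replicates 1 and 4 of q-lsu-KO [dS] (1.72 and 1.68, adjusted p = 0.052 and 0.0558) and replicates 1, 3 and 4 of q-lsu-KO [nS] (1.38, 1.79 and 1.47, adjusted p = 0.112, 0.06 and 0.0808).

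Sulfur deficiency was compared with normal sulfur within each tissue and genotype. In q-lsu-KO shoots 1 of 3 tested members was called, beside 12.1% of 14593 genes, and in WT shoots 0 of 3 were called, beside 11.4% (1 of 3 at an unadjusted p under 0.05). The member was SULTR3;4, higher under [dS] by 1.92 ± 0.59 on the log2 scale in q-lsu-KO shoots (95% interval 0.71 to 3.12, edgeR adjusted p = 0.0156), a fitted fold of 3.77 that rests on 36 counts in 4 [dS] libraries and 7 counts in 4 [nS] libraries. The libraries of the 2 conditions overlapped, with 1 [nS] library at 5.36 CPM and the lowest [dS] library at 4.502 CPM. It passed the shoot filter through its [dS] libraries, the higher side, so its p-values for [dS] against [nS] in shoots are descriptive only. At a mean CPM of at least 5, or with the 8 libraries fitted alone, it did not pass and was not tested. The call was lost without replicate 1, 3 or 4 of q-lsu-KO [nS] shoots (1.48, 1.88 and 1.58, edgeR adjusted p = 0.0757, 0.05 and 0.0562).

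In WT shoots the same gene had 64 counts under [dS] and 23 under [nS], a log2 difference of 0.89 ± 0.41 (95% interval 0.06 to 1.71, edgeR adjusted p = 0.116). The genotype by sulfur interaction of this gene in shoots was 1.03 ± 0.75 (95% interval −0.49 to 2.55, edgeR adjusted p = 0.901), so the responses of q-lsu-KO and WT were not shown to differ. SULTR3;3 was below its [nS] level in both genotypes without being called, by −0.64 ± 0.37 in q-lsu-KO (adjusted p = 0.241) and −0.70 ± 0.39 in WT (adjusted p = 0.214). This gene had passed the shoot filter mostly through [nS] libraries, the higher side of this comparison. SULTR3;1 differed by 0.18 ± 0.19 in q-lsu-KO shoots (95% interval −0.20 to 0.56) and 0.19 ± 0.16 in WT shoots (95% interval −0.13 to 0.51), on the log2 scale. The [dS] and [nS] values of both members overlapped in both genotypes.

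In roots 0 of 2 tested members were called in q-lsu-KO, beside 6.15% of 15971 genes, and 0 of 2 in WT, beside 6.82%, with 0 at an unadjusted p under 0.05 in either genotype. SULTR3;4 differed between [dS] and [nS] by 0.12 ± 0.14 in q-lsu-KO roots (95% interval −0.16 to 0.40) and −0.00 ± 0.12 in WT roots (95% interval −0.25 to 0.24). SULTR3;5 differed by 0.00 ± 0.20 in q-lsu-KO roots (95% interval −0.39 to 0.40) and −0.02 ± 0.18 in WT roots (95% interval −0.38 to 0.33). These log2 intervals lie inside a 1.5-fold change in either direction. Members under the filter were compared by exact permutation tests of their CPM, 70 splits of 4 against 4 that can give a p of 0.0286 at the least, and the smallest p over both tissues and genotypes was 0.0857, for AT1G23090 in q-lsu-KO roots (2.86 CPM under [dS] and 1.78 CPM under [nS], two-sided, unadjusted).

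The other sulfate transporters gave a measure of what sulfur deficiency did in the same libraries. Of the 7, 5 passed the shoot filter. In q-lsu-KO shoots 4 rose and 1 fell, beside 6.62% and 5.44% of all genes. In WT shoots 4 rose and 1 fell, beside 6.18% and 5.24%. SULTR1;2, the main uptake transporter of roots, was higher under [dS] by 1.60 ± 0.26 in q-lsu-KO shoots and 2.87 ± 0.30 in WT shoots, and SULTR4;2, a vacuolar exporter, by 1.03 ± 0.13 and 2.17 ± 0.14 (log2, SE, edgeR adjusted p at most 7.68e-06). The other risers lay between 0.66 and 1.19. SULTR2;1, which loads sulfate for transport between organs, was the 1 that fell, with −0.64 ± 0.12 in q-lsu-KO shoots and −0.67 ± 0.11 in WT shoots. The median of the 5 was 0.93 in q-lsu-KO and 1.19 in WT, beside 0.18 and 0.19 for the 3 tested SULTR3 genes, which lay on both sides of 0, and 0.00 and 0.02 for all genes. Regardless of sign, the median change was 0.93 and 1.19 for the other transporters, 0.64 and 0.70 for the SULTR3 genes, and 0.26 and 0.25 for all genes, in q-lsu-KO shoots and WT shoots each time. The signed SULTR3 medians are the values of SULTR3;1 alone. Those regardless of sign are the values of SULTR3;3 alone, with SE of 0.37 and 0.39, at most 15 counts per library and no call. Noise at low counts enlarges changes taken regardless of sign, so these medians do not rank the SULTR3 genes against all genes.

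In roots all 7 passed the filter. In q-lsu-KO 4 rose, beside 2.77% of all genes, and in WT 5 rose, beside 3.41%, with none lower. SULTR1;1, a high-affinity uptake transporter, was higher under [dS] by 2.86 ± 0.19 in q-lsu-KO and 3.58 ± 0.16 in WT, and the vascular SULTR2;1 by 2.05 ± 0.10 and 2.13 ± 0.09 (log2, SE, edgeR adjusted p at most 3.59e-18). The second of these averaged 175 ± 6.9 CPM in q-lsu-KO [dS] roots and 42.3 ± 5.3 CPM in q-lsu-KO [nS] roots, and 216 ± 19.4 CPM in WT [dS] roots and 49.5 ± 4.8 CPM in WT [nS] roots (SD, n = 4 each). Its described partner in the SULTR3 family stayed between 18.6 and 19.4 CPM on average in the same 16 libraries. The median of the 7 was 0.63 in q-lsu-KO and 0.82 in WT, beside 0.06 and −0.01 for the 2 tested SULTR3 genes and 0.01 and 0.01 for all genes.

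**Figure D3:**
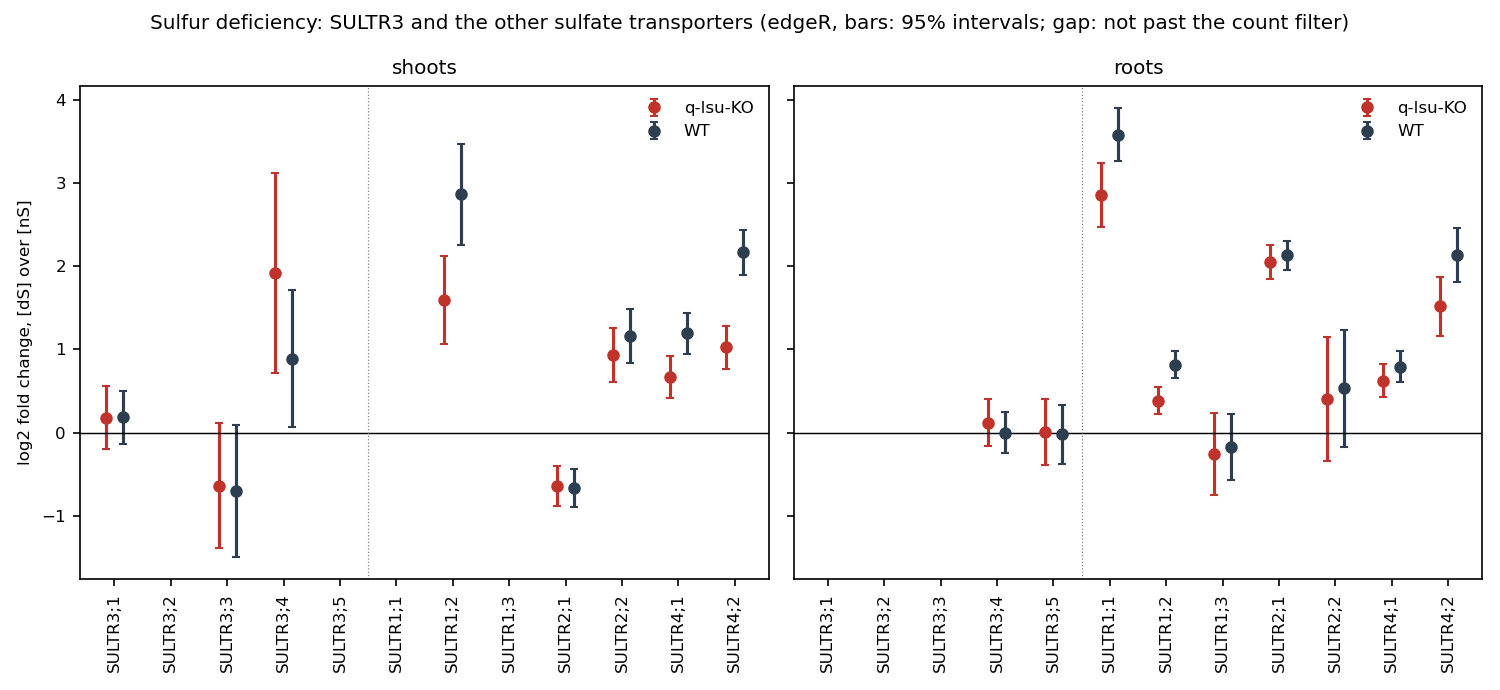
Log2 fold changes of [dS] over [nS] (y axis) for the 5 SULTR3 genes and, right of the dotted line, the other 7 sulfate transporters, in shoots and roots, red for q-lsu-KO and dark for WT, with 95% intervals of the edgeR fit. SULTR1;1 in roots stands at 2.86 and 3.58 while the tested SULTR3 genes in roots lie between −0.02 and 0.12. Genes with no point did not pass the count filter.

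Downstream of plastid import, sulfate is activated by ATP sulfurylases (ATPS) and reduced by APS reductases (APR) and sulfite reductase (SIR). Of these 8 genes, 0 rose and 3 fell in q-lsu-KO shoots under [dS], beside 6.62% and 5.44% of all genes. In WT shoots 1 rose and 3 fell, beside 6.18% and 5.24%. ATPS2 was the most lowered, with −0.89 ± 0.19 in q-lsu-KO shoots and −2.07 ± 0.14 in WT shoots (log2, SE, edgeR adjusted p = 0.000315 and 8.97e-16). In roots 1 rose and 2 fell in q-lsu-KO, beside 2.77% and 3.38% of all genes, and 2 rose and 2 fell in WT, beside 3.41% and 3.42%. ATPS4 was lower, at −1.46 ± 0.12 in q-lsu-KO and −1.55 ± 0.11 in WT, and ATPS3 higher, at 1.24 ± 0.19 and 0.87 ± 0.15 (edgeR adjusted p at most 8.94e-06).

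q-lsu-KO and WT were compared within each tissue and sulfur condition, as labelled, to ask how the family differed in the line with altered LSU genes. No SULTR3 gene was called in any of the 4 comparisons by edgeR. Of 3 tested members in shoots, 0 were called under [dS], beside 4.17% of all genes, and 0 under [nS], beside 4.82%, with 1 at an unadjusted p under 0.05 each time. Of 2 tested members in roots, 0 were called under [dS], beside 0.157%, and 0 under [nS], beside 0.163%, with 0 at an unadjusted p under 0.05.

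SULTR3;1 in shoots averaged 28.2 ± 3.0 CPM in q-lsu-KO [dS] and 35.6 ± 5.6 CPM in WT [dS], and 25.2 ± 2.0 CPM in q-lsu-KO [nS] and 31.9 ± 8.7 CPM in WT [nS] (SD, n = 4 each). The log2 difference was −0.33 ± 0.16 under [dS] (95% interval −0.66 to −0.01, edgeR adjusted p = 0.265) and −0.33 ± 0.19 under [nS] (95% interval −0.71 to 0.05, adjusted p = 0.361). SULTR3;3 differed in the other direction, by 0.64 ± 0.39 under [dS] (adjusted p = 0.435) and 0.58 ± 0.37 under [nS] (adjusted p = 0.439). This gene had passed the shoot filter mostly through q-lsu-KO libraries, the higher side. SULTR3;4 differed by −0.31 ± 0.37 under [dS] (adjusted p = 0.75) and by −1.34 ± 0.65 under [nS] (95% interval −2.65 to −0.03, edgeR adjusted p = 0.252), where it had 7 counts in q-lsu-KO and 23 in WT. Without replicate 2 of q-lsu-KO [nS] shoots, which holds 5 of the 7 counts, that difference was −2.68 (edgeR adjusted p = 0.0455). A call in this comparison thus appeared only with that library left out.

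In roots SULTR3;4 differed between q-lsu-KO and WT by 0.04 ± 0.12 under [dS] (95% interval −0.20 to 0.29) and −0.08 ± 0.14 under [nS] (95% interval −0.36 to 0.20). SULTR3;5 differed by 0.08 ± 0.18 under [dS] (95% interval −0.28 to 0.43) and 0.05 ± 0.20 under [nS] (95% interval −0.35 to 0.45). These log2 intervals lie inside a 1.5-fold change in either direction. The genotype by sulfur interaction called 0 of 3 members in shoots, beside 0.425% of all genes, and 0 of 2 in roots, beside 0.0250%, with 0 at an unadjusted p under 0.05 in either tissue (edgeR). Among members under the filter, the smallest exact permutation p between genotypes was 0.114, for AT3G51895 in roots under [dS] (1.45 CPM in q-lsu-KO and 2.86 CPM in WT, two-sided, unadjusted).

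**Figure D4:**
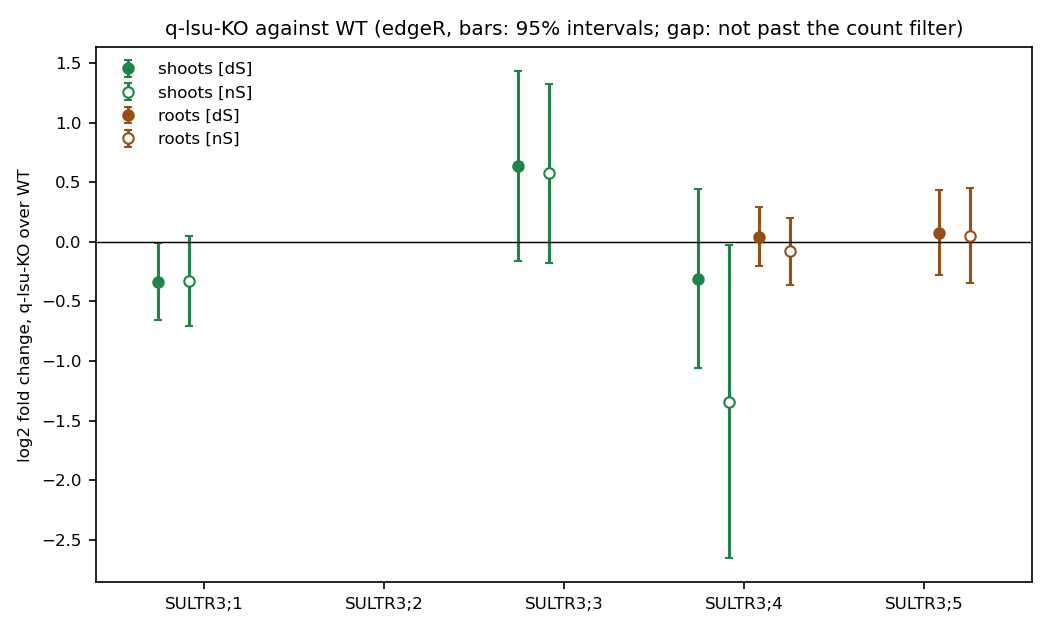
Log2 fold changes of q-lsu-KO over WT (y axis) for the SULTR3 genes that passed the count filter, filled for [dS] and open for [nS], green for shoots and brown for roots, with 95% intervals of the edgeR fit. Root values lie between −0.08 and 0.08, and the widest interval, −2.65 to −0.03, is that of SULTR3;4 in shoots under [nS].

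Among the other sulfate transporters, 0 of 7 were called between q-lsu-KO and WT in roots, beside 0.157% of all genes under [dS] and 0.163% under [nS]. In shoots 0 of 5 were called under [dS], beside 4.17%, and 2 of 5 rose under [nS], beside 3.36% called higher. The 2 were SULTR1;2 (1.48 ± 0.41, adjusted p = 0.0169) and SULTR4;2 (1.07 ± 0.16, adjusted p = 8.15e-06) on the log2 scale with SE. In q-lsu-KO shoots the summed level of 11 early stress genes stood apart, at 2005 to 3041 CPM in q-lsu-KO [dS] and 206 to 1342 CPM in WT [dS], and at 1851 to 2232 CPM in q-lsu-KO [nS] and 146 to 893 CPM in WT [nS]. The part of these genes' difference in the SULTR3 values was not tested. The summed level of 5 vascular markers was 249 to 302 CPM over all shoot libraries and 152 to 213 CPM over all root libraries. In every genotype and sulfur condition 2 of them were called higher and 2 lower in shoots than in roots. The share of all genes called in either direction was 58.4 to 59.2%. Of these 5 genes 0 were called between genotypes in either tissue. The shares of all genes were 4.17% in shoots under [dS] and 4.82% under [nS], and 0.157% and 0.163% in roots.

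The genes whose log2 CPM most resembled that of a member were sought over the 16 libraries of a tissue, as a description without a test, since the libraries share pools, depth and group differences. For SULTR3;1 in shoots the highest Pearson r was 0.85 with AT2G46915, followed by AT3G46845 and AT2G44820 (0.82 each). For SULTR3;3 in shoots they were AT2G15270 (0.89), AT1G65845 (0.84) and AT4G12490 (0.81), and for SULTR3;4 in shoots AT5G64180 (0.89), RAB1C (0.86) and SIP1A (0.85). In roots the highest were AT1G78620 for SULTR3;4 (0.82), followed by AT5G47660 (0.76) and CRF2 (0.76), and AT3G12870, AT1G49960 and AT1G05070 for SULTR3;5 (0.74 each), among 15969 genes. SULTR3 members were left out of this search. None of the 7 other sulfate transporters was among these 15 genes, but 3 genes per member are too few to read anything from that.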

How the data were processed

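3′RNA-seq was measured in shoots and roots of q-lsu-KO and WT seedlings (32 libraries, 4 in each of 8 groups by the labels). The authors deposited raw counts per gene, 1 table per library of 37336 genes, and no normalized values. Their processing notes list TAIR10 with STAR 2.7.8a and DESeq2. How reads were counted, whether strand was used, which annotation release served and whether molecular identifiers were collapsed is not given in the sources used here. A 3′ tag gives 1 position per transcript, so counts were not divided by length and levels were not compared between genes.

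Counts were tested with edgeR 4.0.16 (R 4.3.3, limma 3.58.1): TMM factors, the filterByExpr filter at a minimum count of 10, and two-sided quasi-likelihood F-tests with robust dispersion, in a model of 16 libraries per tissue (14593 genes in shoots, 15971 in roots) or of all 32 (17918 genes). Calls needed a fold above 1.5 and a p under 0.05 after Benjamini-Hochberg adjustment. The SE of a log2 fold change was its absolute value over the square root of F. The 95% intervals were built from that SE with the t distribution, symmetric about the fold change. CPM use TMM factors over 32 libraries. Depth was 893225 to 2857129 counts per library. Replicates of a group differed by more than sampling noise (chi-square over degrees of freedom 1.21 to 3.26 over 48 pairs). DESeq2 1.42.0, other scalings and filters, a replicate block and leaving out each library were tried as alternatives. Scripts were tested on simulated data.

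The members and lists were chosen with earlier results of these data known. Named genes are the members, up to 4 called genes of each list, LSU2, and the 3 most alike genes of each member. Of 37336 identifiers, 37051 matched TAIR10.1, from which coordinates and sequences were read. Zero limits cover counting error only, whereas the intervals of the edgeR fit include the spread between libraries.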

Additional observations from a re-analysis of the deposited data

Results flagged for a closer look

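Of the 40 sets of 4 libraries, 5 genes in 8 groups, 3 held a library far from the other 3 by Dixon's test. Chance alone marks about 1 set in 20 where values are continuous and normally spread. That rate does not hold for values of a few counts, such as those of SULTR3;2. For SULTR3;5 in WT [dS] roots, replicate 2 stood at 26.4 CPM and the others at 15.2, 15.8 and 16.9 CPM. SULTR3;2 in q-lsu-KO [dS] shoots stood at 2.21 CPM in replicate 4, which is 3 counts, and at 0 in the other replicates. SULTR3;2 in WT [dS] roots stood at 0.87 CPM in replicate 4, which is 2 counts, and at 0.43 to 0.48 CPM in the others, which had 1 count each.

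The response of SULTR3;4 to sulfur deficiency in q-lsu-KO differed between shoots and roots in the interaction test, by 1.81 ± 0.55 on the log2 scale (SE, edgeR adjusted p = 0.0214). The [dS] libraries summed to 36 counts and the [nS] libraries to 7 in shoots, and to 274 and 170 in roots. The difference was higher than 0 without any one of the 16 libraries, at 1.38 to 3.17, and its call was lost without 5 of them.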

How the results depend on the processing

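Of 57 log2 fold changes and 18 counts of called members, most kept their direction and side of the threshold. The count of SULTR3 members called for [dS] against [nS] in q-lsu-KO shoots was 1. That count was 0 at a mean CPM of at least 5 and 0 with only the 8 libraries compared, and SULTR3;4 was not tested under either setting. With a library left out it was 0 to 1. The count for sulfur by tissue in q-lsu-KO and that for q-lsu-KO against WT in shoots under [nS] were also 0 to 1 with a library left out. SULTR3;3 in q-lsu-KO [dS], shoots against roots, was no longer called with RLE factors (0.91, adjusted p = 0.0553), upper-quartile factors (0.65), DESeq2 (0.92), no filter (0.95), a replicate block (0.93) or library totals (0.22), nor without replicate 1, 2 or 3 of q-lsu-KO [dS] roots or replicate 1 or 4 of q-lsu-KO [dS] shoots, and the cause was not tested.

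Replicate numbers paired the libraries weakly at most (48 correlations of deviations, −0.10 to 0.25, with 0 of 12 group pairs all over 0.1). Between the sulfur conditions of a genotype, same-numbered libraries had mean correlations of 0.031 to 0.115, against −0.038 to −0.0105 for other numbers. Apart from SULTR3;3 above, the replicate block changed no call. It turned the sign of SULTR3;5 for [dS] against [nS] in q-lsu-KO roots (−0.022) and for genotype by sulfur in roots (−0.0052). In q-lsu-KO roots it stood at −0.0018 with RLE factors and −0.010 with DESeq2. SULTR3;1 for genotype by sulfur in shoots was 0.0075 with RLE factors, 0.0084 with DESeq2 and 0.019 without organelle genes. With library totals, chosen after seeing the data, SULTR3;3 in WT [dS], shoots against roots, was −0.27, in WT [nS] it was 0.78 and no longer called (adjusted p = 0.112), and SULTR3;4 for [dS] against [nS] in WT roots was 0.00055.

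Adding MFP1 to SULTR3;4, also chosen after seeing the data, made the sum mostly MFP1 in shoots by construction (96.0 to 99.3%, against 14.2 to 21.7% in roots), so that its values follow MFP1 and do not bear on the direction of SULTR3;4. Shoots against roots were then 2.28 in q-lsu-KO [dS], 2.29 in WT [dS], 2.49 in q-lsu-KO [nS] and 2.43 in WT [nS]. Genotype by tissue under [nS] was 0.060, sulfur by tissue −0.21 in q-lsu-KO and −0.14 in WT, q-lsu-KO against WT in shoots under [dS] 0.039, and [dS] against [nS] in shoots −0.20 in q-lsu-KO and −0.24 in WT.

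With a library left out, signs turned for SULTR3;1 in sulfur by tissue (−0.45 to 0.27 in q-lsu-KO, −0.61 to 0.0039 in WT) and in genotype by sulfur in shoots (−0.18 to 0.13), and for SULTR3;3 in the last (−0.24 to 0.28). For SULTR3;5 the ranges were −0.50 to 0.97 in sulfur by tissue in q-lsu-KO and −0.073 to 0.24 in genotype by sulfur in roots. In roots, q-lsu-KO against WT ranged over −0.021 to 0.29 under [dS] and −0.056 to 0.14 under [nS] for SULTR3;5 and −0.018 to 0.11 under [dS] for SULTR3;4. [dS] against [nS] ranged over −0.094 to 0.080 in q-lsu-KO roots and −0.23 to 0.064 in WT roots for SULTR3;5, and −0.041 to 0.042 in WT roots for SULTR3;4. Depth limits SULTR3;2 and SULTR3;3 throughout, SULTR3;4 and SULTR3;5 in shoots, and SULTR3;1 in roots.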
